A study of Homo sapiens with 12 samples.

Results

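The BCL2 family decides whether the outer membrane of the mitochondrion stays sealed, and 10 of its genes were followed here by name in 3′ RNA-seq counts of HME-treated and untreated cancer cells: MCL1, BCL2L1, BAX, BAK1, BBC3, PMAIP1, BCL2L11, BID, BIK and BAD. They are 10 of 57736 genes in the count tables, and all 10 were found under these symbols, while 27326 genes were detected in any of the 12 libraries. HME is a methanol extract of the red macroalga *Hypnea musciformis*. HepG2 cells (hepatocellular carcinoma of the liver) and Ls174 cells (adenocarcinoma of the colon), both labelled wild type, were kept for 24 h without treatment or with HME at 0.7 mg/ml by the sample labels (the methods of the study name a slightly higher concentration), with 3 libraries from separate biological replicates in each of the 4 groups. A vehicle control is not named in the sources used here, so that HME was compared with no treatment.

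The family falls into 3 classes that share short BCL2 homology (BH) motifs. BAX and BAK1 are the effectors, which assemble into pores in the outer mitochondrial membrane and so let cytochrome c out to activate caspases. MCL1 and BCL2L1 (BCL-XL) are prosurvival members that hold the effectors in check. The BH3-only members BBC3 (PUMA), PMAIP1 (NOXA), BCL2L11 (BIM), BID, BIK and BAD carry a single BH motif, are switched on by stress at the level of their transcripts or proteins, and either occupy the groove of the prosurvival proteins or activate the effectors directly. PMAIP1 binds mainly MCL1 and BAD mainly BCL-XL, whereas BBC3 and BCL2L11 bind all prosurvival members. RNA counts do not show the protein level of a member, nor steps such as the cleavage of BID or the phosphorylation of BAD.

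The counts of each member came almost wholly from 1 stretch at the end of its transcript, which for 9 of the 10 genes held over 96% of all its counts and for BID 87.9%. For MCL1 this was chr1:150546835-150549850 on the minus strand, for BCL2L11 chr2:111921710-111926221 on the plus strand and for BBC3 chr19:47723884-47725058 on the minus strand (all GRCh37), and annotated 3′ UTR covered the whole of the first, 95.6% of the second and 83.2% of the third. Each of the 10 stretches held at least 1 AATAAA, the polyadenylation signal, and none overlapped a counted stretch of another gene. The pair of RT-qPCR primers designed for BBC3 lies inside the BBC3 stretch, at chr19:47724162-47724239 in the 3′ UTR, and is shown because it marks the same transcript end that the counts come from. The forward primer lies on the minus strand and the reverse primer on the plus strand.
BBC3 forward primer: gggaggagtctgggagt
BBC3 reverse primer: ttcattccggtatctacagcag
Both primers match chromosome 19 once and span 78 bases.

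The 250 bases before the gene start are shown for BCL2L11 and BBC3 (RefSeq, GRCh38.p14), since their transcripts had the 2 largest fold changes among the members tested in HME-treated HepG2 cells. RefSeq entries were found for 8 of the 10 members, and MCL1 and BIK were not among them. The BCL2L11 stretch is chr2:111120664-111120913 on the plus strand, and the BBC3 stretch is chr19:47232668-47232917 on the minus strand.
BCL2L11: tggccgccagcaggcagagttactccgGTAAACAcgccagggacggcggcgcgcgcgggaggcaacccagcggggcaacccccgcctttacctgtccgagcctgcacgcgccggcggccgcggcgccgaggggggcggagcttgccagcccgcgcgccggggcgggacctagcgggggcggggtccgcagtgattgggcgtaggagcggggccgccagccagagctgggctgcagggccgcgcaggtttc
BBC3: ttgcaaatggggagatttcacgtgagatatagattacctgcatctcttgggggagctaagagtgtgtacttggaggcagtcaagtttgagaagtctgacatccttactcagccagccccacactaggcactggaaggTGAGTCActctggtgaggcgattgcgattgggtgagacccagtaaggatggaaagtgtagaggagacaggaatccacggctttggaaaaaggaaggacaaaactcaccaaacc
Capitals mark matches to 2 of 5 motifs that were searched on both strands in the window from 250 bases before to 50 after the gene start. BCL2L11 held the FOXO motif GTAAACA at −223, a motif present in 3.4% of 35116 human promoter windows, and BBC3 held the AP-1 motif TGANTCA at −113, present in 7.7% of them. Neither held the CRE (TGACGTCA, in 1.8% of windows), the p53 decamer (6.6%) or the CArG box (1.3%) in this window, which leaves the rest of each gene unsearched. The primers of the study for chromatin immunoprecipitation at BBC3 lie outside this window. They lie at chr19:47734573-47734681 (GRCh37), 1342 bases or more inside the annotated gene. Among the other members only BAK1 had a match, to the p53 decamer at −73. The 2 promoters also differed in composition, with a GC content of 74.7% for BCL2L11 and 48.0% for BBC3.

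Libraries held between 1790841 and 3656662 counts, and 3 of them stood apart. Control 2 of HepG2 differed from the other controls with a chi-square of 49.1 and 54.1 per degree of freedom over genes, where those differed by 13.6, and control 1 of Ls174 with 34.5 and 37.0, where the others differed by 5.68. HME 2 of HepG2 held transcripts of fibrillar collagen, with 1560 counts of COL1A1 and 1153 of COL1A2 where no other library had more than 16 of the first or 12 of the second. Summed over a list of 5 fibroblast markers, HME 2 of HepG2 reached 961 CPM against 3.11 to 10.2 in the other HepG2 libraries, while DCN and LUM were at 0 in it. The liver list (8 genes) summed to between 12872 and 21447 CPM in HepG2 and to at most 127 CPM in Ls174 libraries, and its sums in HME-treated HepG2 cells (12872 to 14057 CPM) lay below those of the controls (18200 to 21447 CPM). The 127 CPM was in Ls174 control 3, with 176 counts of ALB and 129 of AFP, where Ls174 controls 1 and 2 had 0 of both. HME 1 and HME 3 of Ls174 held 45 and 29 counts of ALB. The colon list (8 genes) summed to between 374 and 445 CPM in Ls174 and to at most 209 CPM in HepG2. In Ls174, however, KRT20 never passed 1 count, MUC2 never passed 7 counts and CEACAM5 never passed 17 counts. VIL1 made up most of the HepG2 sums and mostly ran the other way. It was at 188 and 169 CPM in HepG2 controls 1 and 3 and between 94.3 and 120 CPM with HME. Every Ls174 library held between 42.3 and 79.2 CPM of VIL1, a range that also held HepG2 control 2 (52.95 CPM). Blood markers (5 genes) summed to at most 4.61 CPM in Ls174 and to between 92.2 and 553 CPM in HepG2, nearly all of it LYZ, and PTPRC was at 0 in all 12 libraries. Endothelial markers (3 genes) stayed at or under 4.36 CPM. The part of any of these in the results was not tested, and results that turn on these libraries are also given without them. No pair of replicates came below 4.44 in the same measure, so that none was a duplicate. Levels below are CPM (reads of a gene per 1000000 counted) on 1 scale set over the 12 libraries, and since 3′ counting reads each transcript once, they do not grow with transcript length. A count of 3, taken as the floor of a library, corresponded to between 0.768 and 1.87 CPM, a limit that covers counting error only.

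**Figure D1:**
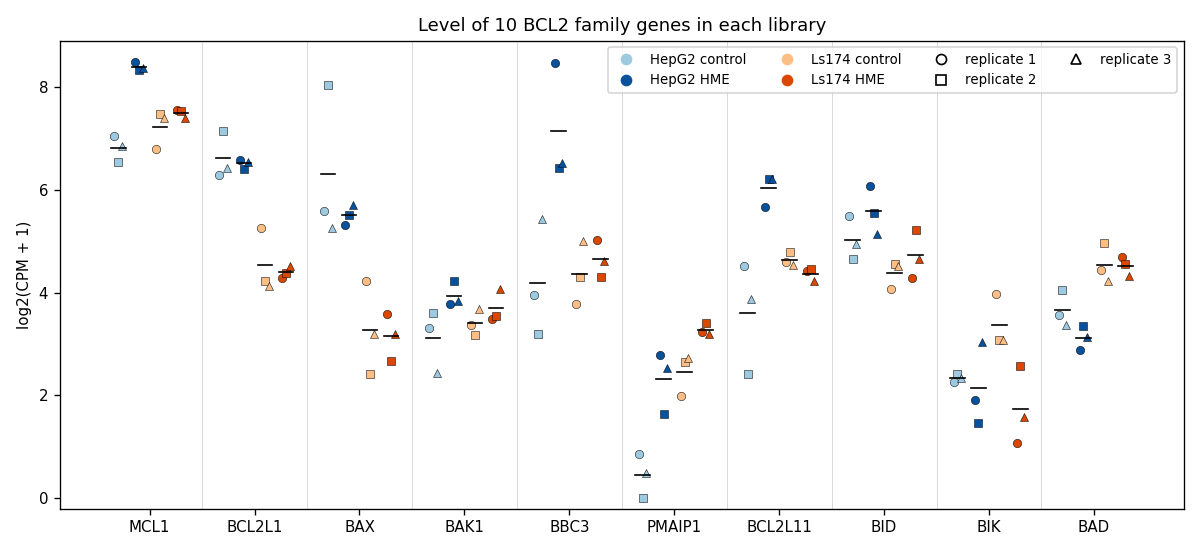
Level of each member, as log2(CPM + 1), in the 12 libraries, with a black bar for the mean of the 3 libraries of a group. The 3 HME libraries of HepG2 lie above all 3 controls for MCL1, BBC3, PMAIP1, BCL2L11 and BAK1, and control 2 of HepG2 holds by far the highest BAX level (263 CPM).

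To find which members respond to HME in liver cancer cells, the 3 HME and 3 control libraries of HepG2 were compared. MCL1 rose 3.01-fold and BCL2L11 4.80-fold, and BBC3 was 8.23-fold higher without passing the adjusted threshold, so that the members that stood out in HepG2 were a prosurvival gene and a pair of BH3-only genes. Of 9 members tested, 2 had an adjusted p under 0.05 (edgeR quasi-likelihood, Benjamini-Hochberg over 11343 genes), where 3.31% of all tested genes did. At the thresholds of the study (log2 fold change over 0.58 in size, with an unadjusted p under 0.05), BBC3 joined them, all 3 higher with HME, and 22.2% of tested genes passed. Every HME library lay above every control for 5 members (MCL1, BCL2L11, BBC3, BAK1 and PMAIP1) and below for 1 (BAD). Groups did not overlap for 30.8% of the tested genes, a share that does not cover PMAIP1, which was not tested. In RNA from whole cultures, a change in the share of cells that make a transcript and a change in the amount per cell cannot be told apart.

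MCL1, a short-lived prosurvival protein, had the highest median level of all members in every group, although BAX and BCL2L1 exceeded it in HepG2 control 2. Its level was 131, 91.6 and 115 CPM in HepG2 controls 1, 2 and 3 and 355, 322 and 330 CPM in HME 1, 2 and 3. The lowest HME library was well above the highest control, with means of 336 ± 17.5 and 113 ± 20.0 CPM (SD, n = 3). The log2 fold change was 1.59 ± 0.30 (SE), with an adjusted p of 0.0197 by edgeR. BCL2L1, whose protein BCL-XL shares that role, did not pass the test, at 76.9, 139.5 and 84.5 CPM in controls and 94.97, 84.1 and 91.9 CPM with HME (log2 fold change −0.15 ± 0.34 (SE), edgeR adjusted p of 0.816). Its groups overlapped, and without control 2, its highest library, the log2 fold change was 0.23 ± 0.22 (SE). MCL1 made up 53.4% ± 12.3 (SD, n = 3) of the summed counts of this pair in control cells and 78.8% ± 0.524 with HME.

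BCL2L11 encodes BIM, a BH3-only protein that binds every prosurvival member. HepG2 controls 1, 2 and 3 held 22.0, 4.36 and 13.7 CPM, and HME 1, 2 and 3 held 49.9, 73.2 and 72.7 CPM. The controls spread over a wide range but none came near the HME libraries. The log2 fold change was 2.26 ± 0.48 (SE), with an adjusted p of 0.0336 by edgeR, and it was 1.92 with an adjusted p of 0.00769 without control 2, where the level was lowest. BBC3, known as PUMA and a transcriptional target of p53 among other factors, had 14.5, 8.10 and 42.4 CPM in the controls and 353, 84.5 and 90.7 CPM with HME. All HME libraries were above all controls, but HME 1 held 891 counts against 239 and 151 in HME 2 and 3, and control 3 was above the other controls. This spread gave a log2 fold change of 3.04 ± 0.72 (SE), an unadjusted p of 0.00191 and an adjusted p of 0.0540 by edgeR. Without HME 1 the log2 fold change was 2.06, with an adjusted p of 0.167.

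The size of the MCL1 increase depended little on any 1 library, that of BBC3 depended strongly on HME 1 and control 3, and the calls of MCL1 and BCL2L11 were lost without most of the libraries. Across fits that left out 1 of the 6 libraries, the log2 fold change ranged from 1.51 to 1.70 for MCL1, from 1.92 to 2.81 for BCL2L11 (the latter without control 1) and from 2.06 (without HME 1) to 3.94 (without control 3) for BBC3. The adjusted p of MCL1 stayed under 0.05 only without control 2 (0.00557) and went up to 0.102 without HME 3, being 0.0520 without control 1, 0.0775 without control 3, 0.0921 without HME 1 and 0.0804 without HME 2. That of BCL2L11 stayed under 0.05 without control 1 (0.0327) and control 2, and was 0.0916 without control 3, 0.0781 without HME 1, 0.112 without HME 2 and 0.129 without HME 3. That of BBC3 fell under 0.05 without control 2 (0.0481) or control 3 (0.0479). Without HME 2, the library with collagen transcripts, the log2 fold changes were 1.64 for MCL1, 2.20 for BCL2L11 and 3.39 for BBC3, so that each was close to or above its value with all libraries and the calls of MCL1 and BCL2L11 were lost. DESeq2 called all 3 genes (adjusted p of 1.22e-05, 0.000319 and 0.000288), where 1043 of 11343 tested genes passed.

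**Figure D2:**
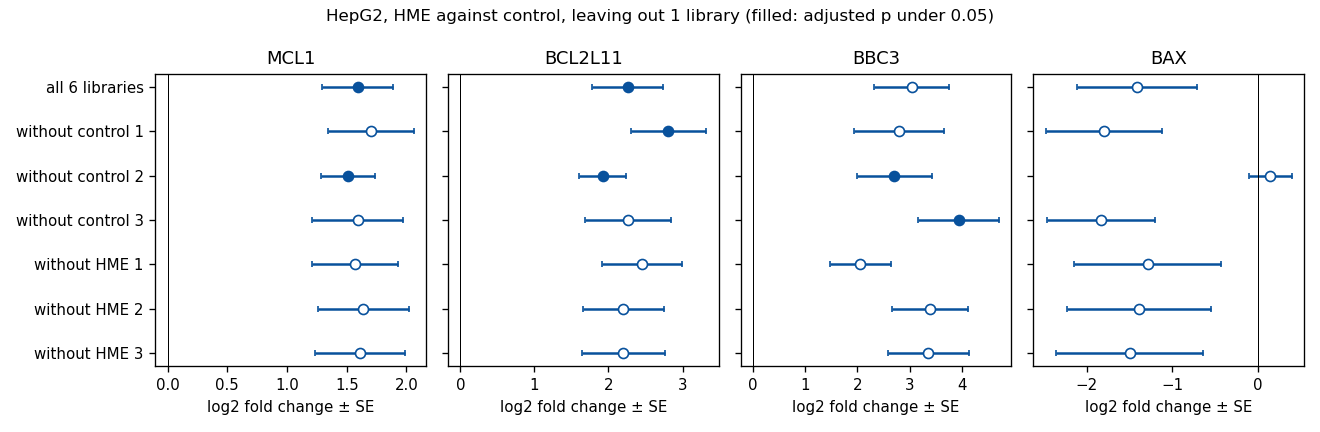
Log2 fold change of MCL1, BCL2L11, BBC3 and BAX in HepG2 (HME against control, ± SE) with all 6 libraries and without each in turn, where filled points have an edgeR adjusted p under 0.05. MCL1 stays between 1.51 and 1.70 while most of its points are open, BBC3 runs from 2.06 to 3.94, and BAX moves from −1.41 to 0.14 once control 2 is left out.

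The effectors gave no call in HepG2 with all libraries and the main test. BAX had 47.3, 262.9 and 37.2 CPM in controls 1, 2 and 3 and 38.8, 44.5 and 51.0 CPM with HME, a log2 fold change of −1.41 ± 0.70 (SE) with an edgeR adjusted p of 0.265. Control 2 was the only library above 51.0 CPM, and without it the log2 fold change was 0.14 ± 0.25 (SE), with overlapping groups. With control 2 kept, BAX was called lower when all genes with 1 count were tested (edgeR adjusted p of 0.0230), and at the thresholds of the study with DESeq2, with library size only, in the joint fit, and without control 1 (−1.80) or control 3 (−1.83). BAK1, the other pore-forming member, had 8.87, 11.2 and 4.45 CPM in controls and 12.7, 17.7 and 13.2 CPM with HME. These groups did not overlap, but the log2 fold change of 0.85 ± 0.44 (SE) had an adjusted p of 0.281 by edgeR. It passed the thresholds of the study without control 2 (1.16, unadjusted p of 0.0186) and with at least 10 counts in every sample (0.89, 0.0399). BAK1 is uncertain, because the processed pseudogene BAK1P1 drew between 6 and 32 counts per library, against 11 to 50 for BAK1, and how reads that fit both were assigned is not given in the sources used here.

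PMAIP1 (NOXA), the BH3-only partner of MCL1, was close to the detection limit in untreated HepG2 cells. Its counts were 3, 0 and 1 in controls, none above the floor of 3, and 15, 6 and 8 with HME. It did not pass the filter on low counts and so has no main test in this line. Summed over libraries and corrected for depth, 29 counts with HME against 4 without gave a ratio of 8.05, with a 95% exact counting interval from 2.83 to 31.5, which leaves out the spread between replicates. Fits that kept it gave an adjusted p of 0.0380 (all genes with 1 count) and 0.0253 (1 edgeR fit of all 12 libraries), but between 0.0665 and 0.153 in the 4 edgeR fits that left out control 1, 2 or 3 or HME 2.

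The remaining BH3-only members did not pass the test in HepG2. BID, which caspase-8 cleaves to link death receptors with mitochondria, had 43.8, 24.3 and 29.9 CPM in controls and 66.5, 46.0 and 34.2 CPM with HME, with overlapping groups and a log2 fold change of 0.59 ± 0.36 (SE) at an edgeR adjusted p of 0.348. BID was also the only member with a sizeable second 3′ stretch, at chr22:18220627-18220995, which held 9.78% of its counts in HepG2 controls and 11.3% with HME. BAD, a BH3-only protein controlled by phosphorylation, had 10.8, 15.6 and 9.30 CPM in controls and 6.33, 9.19 and 7.81 CPM with HME, groups that were apart by a narrow margin (log2 fold change −0.59 ± 0.41 (SE), edgeR adjusted p of 0.425). BIK, a BH3-only protein of the endoplasmic reticulum, had between 5 and 14 counts in every HepG2 library and a log2 fold change of −0.11 ± 0.60 (SE), with a sign that turned when HME 1 (0.11) or HME 2 (0.29) was left out.

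**Figure D3:**
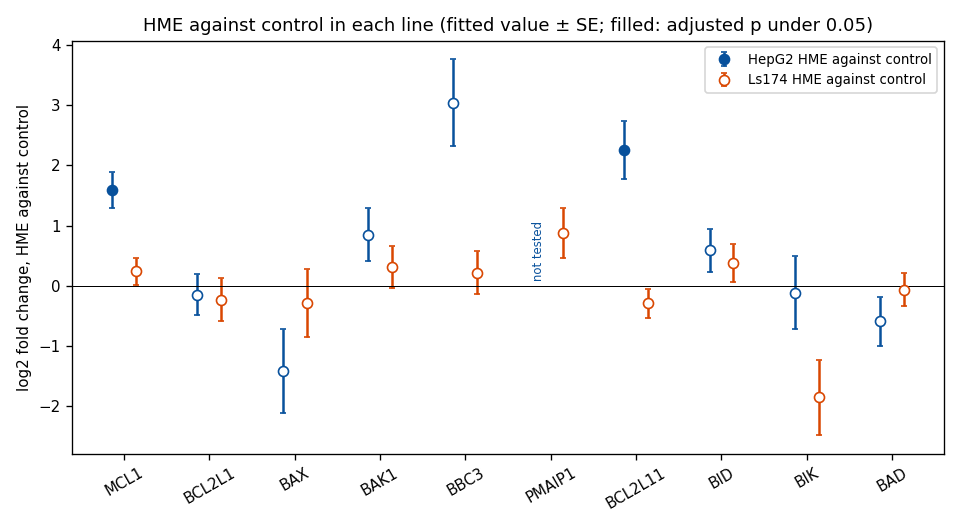
Log2 fold change (HME against control, ± SE) of the 10 members in HepG2 (blue) and Ls174 (orange), filled where the edgeR adjusted p is under 0.05. Only MCL1 and BCL2L11 in HepG2 are filled, the Ls174 value of BIK (−1.85) is the lowest, and PMAIP1 was not tested in HepG2.

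The same comparison in Ls174 asked whether colon cancer cells share this response. None of the 10 members, all tested, had an adjusted p under 0.05 by edgeR or by DESeq2, where 1.18% of 11319 genes did by edgeR. At the thresholds of the study 1 member was called, BIK, where 12% of tested genes passed, and it was also the only member at an unadjusted p under 0.05. Groups did not overlap for PMAIP1 (higher with HME), BCL2L11 and BIK (both lower), against 23.8% of tested genes. BIK had 30, 24 and 29 counts in controls (14.8, 7.45 and 7.42 CPM) and 3, 14 and 6 counts with HME (1.09, 4.98 and 1.97 CPM), and every HME library lay below every control. The log2 fold change was −1.85 ± 0.62 (SE), with an unadjusted p of 0.0162 and an adjusted p of 0.246 by edgeR, and −1.45 without control 1, which stood apart. Without HME 1 or HME 3 the unadjusted p was 0.0576 or 0.0634, so that the call at the thresholds of the study rested on these libraries.

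MCL1 had 109.7, 176 and 167 CPM in Ls174 controls and 187, 184 and 167 CPM with HME, a log2 fold change of 0.24 ± 0.22 (SE) with an edgeR adjusted p of 0.653, and of 0.07 without control 1. BBC3 had 12.8, 18.6 and 31.0 CPM in controls and 31.7, 18.8 and 23.3 CPM with HME, and the log2 fold change of 0.22 ± 0.36 (SE) turned to −0.02 without control 1. BCL2L11 was a little lower in each HME library (20.4, 21.0 and 17.7 CPM) than in any control (23.1, 26.7 and 22.3 CPM), with a log2 fold change of −0.29 ± 0.24 (SE) and an edgeR adjusted p of 0.615. PMAIP1, detectable in every Ls174 library, had 2.95, 5.28 and 5.63 CPM in controls and 8.38, 9.60 and 8.21 CPM with HME. That difference, 0.88 ± 0.41 (SE) on the log2 scale, had an edgeR adjusted p of 0.395 and an unadjusted p of 0.0637. BCL2L1, BAX, BAK1, BID and BAD had log2 fold changes between −0.28 and 0.38, each with an adjusted p of 0.616 or more by edgeR. The sign turned for BCL2L1 (0.25) and BAX (0.36) without control 1, and for BAD without control 2 (0.20) or HME 3 (0.04).

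Whether the effect of HME differed between the lines was tested by the interaction of line and treatment over all 12 libraries. No member had an adjusted p under 0.05 by edgeR, where 0.644% of 13040 genes did. DESeq2 called BCL2L11 and MCL1, among 385 of these genes. At an unadjusted p under 0.05 there were 4 members, BCL2L11, MCL1, BBC3 and PMAIP1, each with the larger effect in HepG2, where 13.2% of all tested genes were under that value. For BCL2L11 the effect in HepG2 exceeded that in Ls174 by 2.51 ± 0.57 (SE) on the log2 scale, with an adjusted p of 0.0634 by edgeR and 0.000992 by DESeq2. For MCL1 the difference was 1.32 ± 0.36 (SE), with adjusted p values of 0.129 and 0.00222 by the same tools. For BBC3 it was 2.78 ± 0.87 (SE), with 0.178 by edgeR and 0.0526 by DESeq2, and for PMAIP1 2.11 ± 0.88 (SE) with 0.317 by edgeR and 0.274 by DESeq2. Without the 2 controls that stood apart, edgeR called BCL2L11 (2.13, adjusted p of 0.00785) and MCL1 (1.36, adjusted p of 0.0117), among 433 of 13327 tested genes. Without HepG2 HME 2, the differences were 2.40 for BCL2L11 and 1.34 for MCL1, with adjusted p values of 0.1495 and 0.228. That of BBC3 ran from 1.73 without HepG2 HME 1 to 3.69 without HepG2 control 3.

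The lines also differed in the members they express before any treatment. In untreated cells, BAX was 12.3-fold and BCL2L1 4.38-fold higher in HepG2 than in Ls174, and these were the 2 of 9 tested members with an adjusted p under 0.05, where 23.5% of 11907 genes passed. Ls174 controls held 17.7, 4.35 and 8.19 CPM of BAX, all below the lowest HepG2 control (37.2 CPM), and the log2 difference was 3.61 ± 0.88 (SE) with an edgeR adjusted p of 0.0161. Without HepG2 control 2 the log2 difference of BAX was 2.13 with an adjusted p of 0.0243. BCL2L1 had 37.4, 17.7 and 16.4 CPM in Ls174 controls against 76.9 or more in HepG2 (log2 difference 2.13 ± 0.45 (SE), edgeR adjusted p of 0.00818). BIK, BAD, BCL2L11 and PMAIP1 were lower in every HepG2 control than in every Ls174 control, but the share of all genes without overlap was not counted here. BIK (log2 difference −1.23 ± 0.53 (SE), edgeR adjusted p of 0.131), BAD (−0.92, 0.160) and BCL2L11 (−0.79, 0.324) did not pass and PMAIP1 was not tested. With both controls that stood apart left out, 5 members passed, where 5625 of 12790 tested genes did. BAX, BCL2L1 and BID (0.76, edgeR adjusted p of 0.0452) were higher in HepG2, and BAD (−1.22, 0.0135) and PMAIP1 (−3.00, 0.00278) lower. PMAIP1 had 3 and 1 counts in the HepG2 controls kept, neither above the floor of 3.

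After treatment, 8 of 9 tested members differed between the lines, where 54.6% of 11914 genes did. The 6 that were higher in HepG2 were BBC3 (7.24-fold, adjusted p of 0.000747), BAX (5.52-fold, 2.75e-05), BCL2L1 (4.53-fold, 3.45e-06), BCL2L11 (3.35-fold, 6.43e-05), MCL1 (1.90-fold, 0.000937) and BID (1.89-fold, 0.0226), all by edgeR. BAD was 2.78-fold lower in HepG2 (edgeR adjusted p of 0.000887), and PMAIP1 2.04-fold lower (0.0486). Among these 8 the libraries of the 2 lines overlapped only for BID. How many of all tested genes were likewise without overlap was not counted, so that this is a description only. BAK1 did not pass (log2 difference 0.28 ± 0.29 (SE), edgeR adjusted p of 0.448), and BIK was not tested. Without HepG2 HME 1 the log2 difference of BBC3 was 1.86 in place of 2.86 and was still called. The calls of PMAIP1 and BID were lost without single libraries. PMAIP1 was lost without any library but HepG2 HME 1, up to an adjusted p of 0.187 without HepG2 HME 2, and was not called by DESeq2 (0.0842). BID was lost without HepG2 HME 1 (0.0735), Ls174 HME 1 (0.0881) or Ls174 HME 3 (0.0750).

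Set in order of their levels, MCL1 led by median in all 4 groups and PMAIP1 or BIK came last. In HepG2 controls the order by median was MCL1 (115 CPM), BCL2L1, BAX, BID, BBC3, BCL2L11, BAD, BAK1, BIK and PMAIP1 (0.404 CPM), and from MCL1 to BAK1 each member overlapped with the next. With HME, MCL1 (330 CPM) stood clear of BCL2L1 (91.9 CPM) and BBC3 (90.7 CPM), which overlapped, and BBC3 stood at rank 3 rather than 5 and BCL2L11 at rank 4 rather than 6. In Ls174 controls MCL1 (167 CPM) was likewise clear of the next member, which was BCL2L11 (23.1 CPM), and BCL2L11, BID, BAD, BBC3 and BCL2L1 overlapped from one to the next. In HME-treated Ls174 cells the same 5 members followed MCL1 (184 CPM), between 24.3 CPM for BID and 19.9 CPM for BCL2L1.

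The levels were also summed by class, without a test since the members were chosen by name. The prosurvival pair summed to 208, 231 and 199 CPM in HepG2 controls and to 450.3, 406 and 422 CPM with HME, and in Ls174 to 147, 194 and 183 CPM in controls and to 206, 204 and 189 CPM with HME. The 6 BH3-only members summed to 95.7, 56.7 and 99.8 CPM in HepG2 controls and to 484, 217 and 217 CPM with HME, so that both sums were higher in every HME library than in any control. In Ls174 they summed to 89.995, 111 and 106 CPM in controls and to 105, 113 and 94.6 CPM with HME. BH3-only transcripts were 31.5%, 19.7% and 33.4% of the 2 classes together in HepG2 controls and 51.8%, 34.8% and 34.0% with HME, a share that lay far above the controls in HME 1 only, where BBC3 was at 353 CPM. In Ls174 the share lay between 36.4% and 38.0% in controls and between 33.3% and 35.7% with HME. The effectors summed to 56.2, 274 and 41.6 CPM in HepG2 controls and to between 51.4 and 64.3 CPM with HME, and to between 12.4 and 27.0 CPM in all Ls174 libraries.

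**Figure D4:**
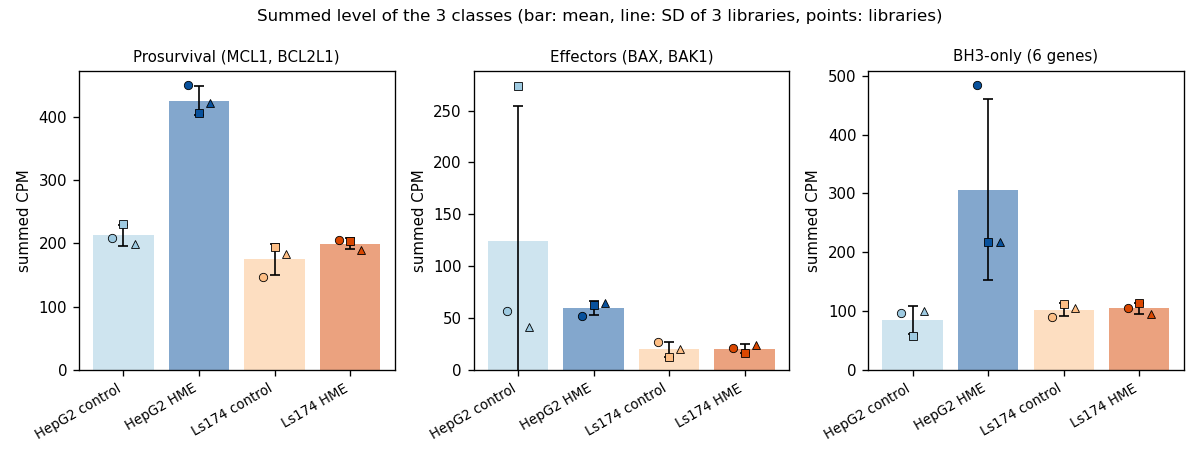
Summed CPM of the prosurvival, effector and BH3-only members, with bars for the mean, lines for the SD and points for the 3 libraries of each group. The prosurvival sum of HepG2 is 426 CPM with HME and 213 CPM without, the BH3-only sum is highest in HME 1 of HepG2 (484 CPM), and control and HME libraries of Ls174 overlap in every class.

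Other genes of the pathway were read from 5 lists around the members. Among 15 other relatives of BCL2, 9 were tested in HepG2 and 0 passed the adjusted test, while 3 were higher and 1 lower at the thresholds of the study (median log2 fold change 0.57, against −0.04 for all tested genes, of which 22.2% passed). Without control 2 these counts were 5 and 1, where 2874 of 11899 tested genes passed. Without HME 2 they were 1 and 1, where 1777 of 11726 passed. The 3 higher were BNIP3L (log2 fold change 1.14) and BNIP3 (0.84), both receptors for the removal of mitochondria, and BCL2L12 (0.90). The lower was BOK (−1.55), an effector-like member, with 57.3, 116 and 32.3 CPM in controls and 19.4, 24.4 and 27.0 CPM with HME. In Ls174 only BCL2L13 was called (0.97, with 12.8, 49.0 and 51.7 CPM in controls and 81.6, 70.8 and 73.6 CPM with HME), and 0 passed the adjusted test. Its lowest library was the Ls174 control that stood apart, and without it the log2 fold change was 0.58 with an edgeR adjusted p of 0.0344.

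The death receptor arm reaches mitochondria through BID. In HepG2, 6 of its 12 tested genes were higher and 1 lower at the thresholds of the study, with a median log2 fold change of 0.72, and 1 passed the adjusted test, against 22.2% and 3.31% of all tested genes. That gene, TNFRSF10A, a receptor for the death ligand TRAIL, had 12.1, 10.6 and 10.5 CPM in controls and 24.9, 40.7 and 39.0 CPM with HME (log2 fold change 1.66 ± 0.34 (SE), edgeR adjusted p of 0.0314). Without HME 2 of HepG2 its adjusted p was 0.134, and 4 rather than 6 genes of the list were higher. Without control 2 the counts were 6 and 1, with 2 genes past the adjusted test and a median of 0.47. In that fit 921 of 11899 tested genes passed the adjusted test. The TNF receptor TNFRSF1A (1.07), the initiator caspase CASP10 (1.03), the kinase RIPK1 (1.02) and the decoy receptor TNFRSF10D (1.11) were among those called higher at the thresholds of the study. TNFSF10, which encodes TRAIL itself, was called lower, from 8.60, 11.8 and 9.70 CPM in controls to 1.98, 0 and 2.40 CPM with HME, a log2 fold change of −2.84 ± 0.75 (SE). In Ls174, none of 10 tested genes of this list was called by either rule, and 0 had an unadjusted p under 0.05.

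Downstream of mitochondria, 11 of 13 genes of caspase activation were tested in HepG2, with 2 lower (the executioner CASP6, −1.80, and the caspase inhibitor BIRC5 or survivin, −1.35) at the thresholds of the study, a smaller share than the 22.2% of all tested genes. Control 2 held the highest levels of CASP6 (109 CPM), BIRC5 (451 CPM) and BOK (116 CPM), as it did of BAX, and without it their log2 fold changes were −0.76, −0.75 and −0.87. In Ls174 the list gave 0 calls at those thresholds. Among 7 factors that drive BH3-only genes, the stress factors ATF4 (1.27) and DDIT3 or CHOP (1.15) were higher and the cell cycle factor E2F1 (−0.74) lower in HepG2. ATF4 was also higher in Ls174 (0.99), with 682, 435 and 427 CPM in controls and 720, 1265 and 1110 CPM with HME, and with Ls174 control 1 left out its log2 fold change was 1.27 (edgeR adjusted p of 0.00165) and that of DDIT3 went from 0.39 to 1.77 (0.00191). With HepG2 control 2 left out, ATF4 (1.11, edgeR adjusted p of 0.0481) and DDIT3 (1.63, 0.0104) passed in HepG2 as well. Of 5 genes that add or remove ubiquitin on MCL1, 2 were called at the thresholds of the study, in opposite directions in HepG2. FBXW7 was higher in HepG2 (1.04, and 1.31 with an edgeR adjusted p of 0.0216 without control 2). HUWE1 was lower in HepG2 (−1.29) and in Ls174 (−0.98). HUWE1 was highest in the 2 controls that stood apart (238 CPM in HepG2 and 231 CPM in Ls174), and without them its values were −0.62 and −0.49. None of these 3 lists had a gene with an edgeR adjusted p under 0.05 in either line with all libraries. In HepG2, 2 of 11, 3 of 6 and 2 of 5 tested genes had an unadjusted p under 0.05, as had 2517 of all 11343. In Ls174 it was 1 of 12, 1 of 7 and 1 of 5, and 1534 of all 11319. In the test of the difference between the lines, 0 genes of the 5 lists passed the adjusted threshold with all libraries. TNFRSF10A passed without the 2 controls that stood apart (1.73, edgeR adjusted p of 0.0378). With all libraries, between 0 and 3 genes of a list were under 0.05 unadjusted, as were 13.2% of all tested genes.

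**Figure D5:**
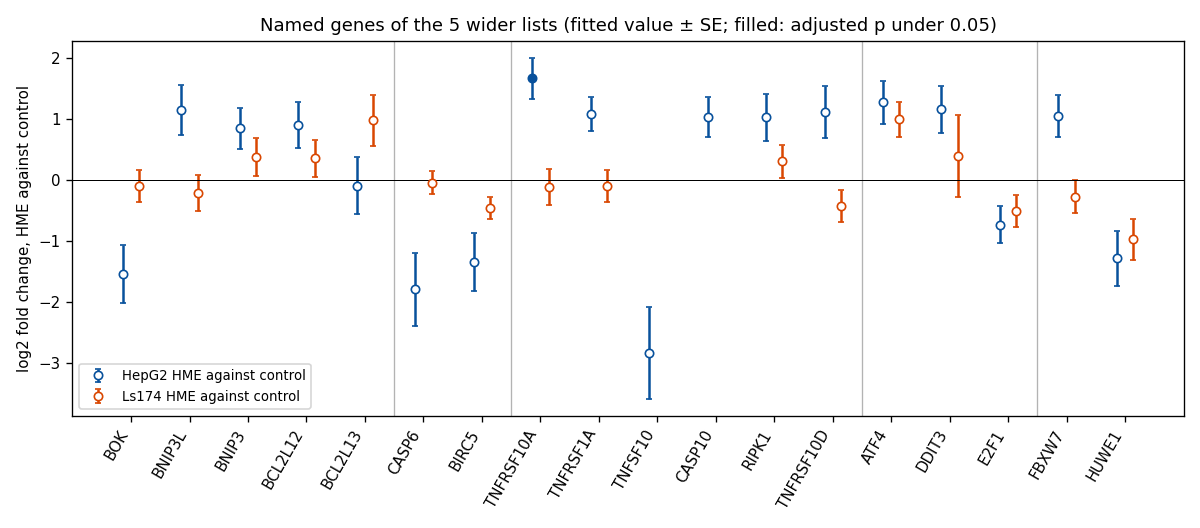
Log2 fold change (HME against control, ± SE) in HepG2 (blue) and Ls174 (orange) of the genes named from the 5 lists, separated by grey lines in the order other BCL2 relatives, caspase activation, death receptor arm, factors and MCL1 ubiquitination. Only TNFRSF10A in HepG2 is filled (edgeR adjusted p under 0.05), while TNFSF10 (−2.84 in HepG2) is the lowest value and was not tested in Ls174.

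Finally, the genes whose levels ran most alike with the 2 called members were looked up among 8878 protein-coding genes tested in both lines. After the mean of each line was taken off the log2 CPM, Pearson's r over the 12 libraries was highest with MCL1 for JMJD6 (0.988), ATF3 (0.984) and SLC3A2 (0.979). With BCL2L11 it was highest for CCNG2 (0.982), SIX4 (0.977) and RAPH1 (0.971). MCL1 and BCL2L11 had an r of 0.881 with each other. These values are a description, since the 12 libraries share the contrast between control and HME and differ in depth.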

How the data were processed

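The 12 libraries were prepared by the authors with a 3′ mRNA kit (QuantSeq), sequenced on an Ion Proton instrument, aligned to hg19 (GRCh37) with HISAT2 and passed to metaseqR2. Bowtie2 and Trimmomatic are also named in the submitters' processing notes. Versions, strand setting and the handling of multiple alignments are not given in the sources used here. The deposited tables hold whole-number counts per 3′ region, 144910 regions, without normalization, and were summed here per gene.

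The members, the wider lists and the tests were chosen with earlier results of these data known. Each comparison was fitted over all genes with edgeR 4.0.16 in R 4.3.3, by the two-sided quasi-likelihood F test after TMM scaling and the filterByExpr filter with the groups given, on the libraries compared and without covariates, and the interaction on all 12. P values were adjusted by Benjamini-Hochberg over all tested genes, and the SE comes from the F statistic. A binomial test on summed counts has no term for replicate spread and was an alternative only. The methods of the study name a binomial test but do not say how replicates entered it. Whether the test on summed counts is the same as that of the study is therefore not known. CPM values used TMM over all 12 libraries. DESeq2 1.42.0, other scalings, filters, a replicate block, 1 joint fit and leaving out libraries were the alternatives. All 10 members are named, and genes of the wider lists are named where they passed either threshold in a line, up to 6 per list by smallest p. The fits were tested on simulated data. Total counts per library lay between 1790841 and 3656662. Quantitative PCR, chromatin immunoprecipitation and proteomics were not analysed here. A gene of the caspase list is not reported here.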

Additional observations from a re-analysis of the deposited data

Results flagged for a closer look

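BCL2L11 stood out for the difference between its HME effects in the 2 lines. Its level was higher in 3 of 3 HME libraries than in any control of HepG2 and lower in 3 of 3 than in any control of Ls174. Groups did not overlap for 30.8% of tested genes in HepG2 and 23.8% in Ls174. The change in Ls174 was small and did not pass (log2 fold change −0.29 ± 0.24 (SE), edgeR adjusted p of 0.615). The effect in HepG2 exceeded that in Ls174 by 2.51 on the log2 scale, and the test of this difference gave an edgeR adjusted p of 0.0634, so that it did not pass. Over its alternatives the adjusted p of BCL2L11 ran from 0.000992 (DESeq2) to 0.203 (without Ls174 HME 3).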

How the results depend on the processing

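In HepG2, the count of members with an adjusted p under 0.05 was 2. It became 1 with library size only and with at least 10 counts in every sample (where BCL2L11 was not tested). It was 5 with all genes that had 1 count, 4 in 1 fit of all 12 libraries and 8 with the binomial test, and ran from 0 to 3 without single libraries. Over all tested genes the calls went from 375 of 11343 to 406 with library size only and 188 of 8394 with at least 10 counts. They were 1407 of 24458 with all genes that had 1 count, 807 of 13040 in the joint fit and 7556 of 11343 with the binomial test. Without single libraries they ran from 95 of 11987 to 921 of 11899. DESeq2 called BBC3 (adjusted p of 0.000288) besides MCL1 and BCL2L11, where 1043 of 11343 tested genes passed. At the study's thresholds the count of 3 became 4 with DESeq2 and with library size only, where BAX was called lower. It was 5 with all genes that had 1 count and in the joint fit, and ran from 3 to 5 without single libraries. Of all tested genes, 2517 of 11343 passed in the main fit, 2610 with DESeq2 and 2590 with library size only. With all genes that had 1 count 3838 of 24458 passed, and in the joint fit 3070 of 13040. The binomial test at these thresholds also called BAX (−1.18) and BAD (−0.70) lower and BAK1 (0.72) higher, where 4984 of 11343 tested genes passed. In Ls174, 0 members became 4 with the binomial test only, where 5529 of 11319 tested genes passed. The count of 1 at the study's thresholds (BIK) became 0 with at least 10 counts in every sample, where BIK was not tested. It ran from 0 to 1 without single libraries. The binomial test at the study's thresholds called PMAIP1 (0.77) besides BIK in Ls174, where 2639 of 11319 tested genes passed. For the interaction, 0 became 2 with DESeq2, 2 with all genes that had 1 count and 2 without the 2 controls that stood apart, and ran from 0 to 1 without single libraries. Over all tested genes, 84 of 13040 became 385 with DESeq2, 367 of 27326 with all genes that had 1 count and 433 of 13327 without these controls. Between untreated lines, 2 became 4 in the joint fit and 5 without the 2 controls, and ran from 2 to 3 without single libraries. All-gene calls there were 2798 of 11907 in the main fit, 4631 of 13040 in the joint fit and 5625 of 12790 without the 2 controls. The treated lines kept between 6 and 8 calls under every alternative, and 6503 of 11914 tested genes passed in the main fit.

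With the replicate number as a block, the untreated lines gave 1 call, BAX being at an edgeR adjusted p of 0.0561, and in HepG2 the block moved BBC3 under the threshold (0.0230) and MCL1 over it (0.0532). The block left 0 members called in Ls174 and in the interaction. Deviations of same-numbered libraries correlated between −0.166 and 0.089, and those of libraries with different numbers between −0.2 and 0.307. Same-numbered libraries thus did not deviate together, but whether the cultures were handled in pairs cannot be told from this.

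Signs turned only for members that did not pass in the comparison concerned. Without single libraries in HepG2, BAX ran from −1.83 to 0.14, BCL2L1 from −0.33 to 0.23 and BIK from −0.80 to 0.29. In Ls174, BBC3 ran from −0.02 to 0.63, BAX from −0.65 to 0.36, BCL2L1 from −0.44 to 0.25 and BAD from −0.23 to 0.20. In the interaction, BAX ran from −1.71 to 0.31, BCL2L1 from −0.39 to 0.36 and BID from −0.14 to 0.48, and BCL2L1 (0.07) was −0.00 with library size only, −0.01 with upper quartile scaling and −0.10 without the 2 controls. Between untreated lines, BBC3 ran from −0.82 to 0.50 and BAK1 from −0.51 to 0.09, and BBC3 (0.08) was −0.10 with library size only, −0.02 with upper quartile scaling and −0.11 with the block. Between treated lines BAK1 was −0.03 with library size only. Scaling by library size alone moved the median of all genes in HepG2 from −0.04 to −0.20. The causes were not tested. With 3 libraries a group, members near the floor (PMAIP1, BIK) could be compared only with wide error.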
